A study of Mus musculus with 8 samples.

Results

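Ska2, Neu1, Paf1, Psmg2 and Nob1 are the mouse orthologues of the 5 genes of an exosomal signature that was developed in dogs with osteosarcoma, a bone cancer. The 5 genes were taken by name from the mouse rows of a table of 52016 genes, with earlier results of these data known. Of the 52016 genes 31300 are mouse and 20716 canine, and 21474 of the mouse genes are protein-coding. All 5 were found, each as 1 row. The values describe RNA in exosomes, membrane vesicles that cells release, from the serum of immunodeficient NCr nu/nu mice used as hosts for canine tumour cells. Every mouse after week 0 had received 10 µl into the tibia, which held either phosphate-buffered saline (PBS) or 100000 cells of OSCA-32 or of OSCA-40, both canine osteosarcoma lines. The 8 libraries form 4 groups of 2: serum of all mice pooled before any injection (week 0), and pooled serum at week 8 after PBS, after OSCA-32 and after OSCA-40. Week 0 and PBS libraries are called tumour-free, and the 4 libraries of mice given a line are called tumour libraries. The labels give neither the ages of the mice nor the number of sera in a pool. Nor do they say that the 2 libraries of a group came from separate mice, so every p-value measures library spread alone, and that spread may be technical. The canine genes carry identifiers without names, and the canine counterparts of the signature were not analysed here.

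The signature joins genes of unrelated basic functions. PAF1 is the namesake subunit of a complex that travels with RNA polymerase II and promotes elongation and histone modification. NOB1 is the endonuclease that makes the last cut in the RNA of the small ribosomal subunit, and PSMG2 is a chaperone that pairs with PSMG1 to assemble the ring of the proteasome core. NEU1 is the lysosomal sialidase, which removes sialic acid from glycoproteins and works in a complex with cathepsin A. SKA2 belongs to the SKA complex, which holds kinetochores to spindle microtubules in mitosis. Genes of this kind are expressed in most tissues.

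Paf1 lies at chr7:28392951-28399388 on the plus strand of GRCm38 and Ska2 at chr11:87109234-87124635 on the plus strand. The other 3 orthologues are placed where their values are given. Of the 10 annotated Paf1 transcripts 1 is coding and 9 keep an intron. The table gives 1 value per gene, and kallisto, a tool named in the submitters' processing notes, assigns reads by short words of sequence that transcripts contain. For that reason each GENCODE M21 transcript of the 5 genes was searched for words of 31 bases that also occur, on the same strand, in an annotated transcript of another gene. In Ska2 278 of 3299 words were shared (8.43%), in Paf1 115 of 3504 (3.28%), in Nob1 55 of 3616 (1.52%), in Psmg2 18 of 1738 (1.04%) and in Neu1 1 of 3729 (0.0268%). The median protein-coding gene shared 0.463% of its words, so Ska2, Paf1, Nob1 and Psmg2 were above it and Neu1 below. These shares leave out words found on the opposite strand of other genes. Ska2-201 had 362 such words beside 278 on the same strand, Paf1-205 90 beside 93, and Neu1-202 5 beside 1. The use of strand in assigning reads was not tested. The position of the shared words differed between Paf1 and Ska2, and for that reason 1 stretch of each is shown: the one with most of the shared bases of Paf1-205, and the longest run that Ska2 shares with a pseudogene.

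In Paf1 none of the 1973 words of the coding transcript Paf1-201 was shared. The shared words lay in retained-intron transcripts, chiefly Paf1-205, where 93 of 437 words (21.3%) were shared and 1 word occurred in up to 355 other genes. The last 213 bases of Paf1-205, at chr7:28396999-28397211 on the plus strand and inside an intron of Paf1-201, are printed with the 177 bases covered by shared words in capitals. In Ska2 the coding transcript itself was touched: 172 words were shared with Ska2l-ps, a processed pseudogene at chr1:150549317-150549676. The printed bases of Ska2-202 run from chr11:87117754 to chr11:87121990 across a spliced intron and also lie in the coding sequence of Ska2-201. Their capitals mark 128 bases in a row that Ska2l-ps holds too.
Paf1-205: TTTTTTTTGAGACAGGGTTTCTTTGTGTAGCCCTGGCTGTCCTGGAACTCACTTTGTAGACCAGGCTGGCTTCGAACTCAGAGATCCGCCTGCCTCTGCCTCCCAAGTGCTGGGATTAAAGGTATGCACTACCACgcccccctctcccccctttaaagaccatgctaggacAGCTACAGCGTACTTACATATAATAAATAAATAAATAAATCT
Ska2-202: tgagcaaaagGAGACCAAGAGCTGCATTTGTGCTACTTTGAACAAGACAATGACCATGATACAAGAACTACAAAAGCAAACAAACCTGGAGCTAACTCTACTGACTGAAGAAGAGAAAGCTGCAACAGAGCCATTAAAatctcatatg

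**Figure D1:**
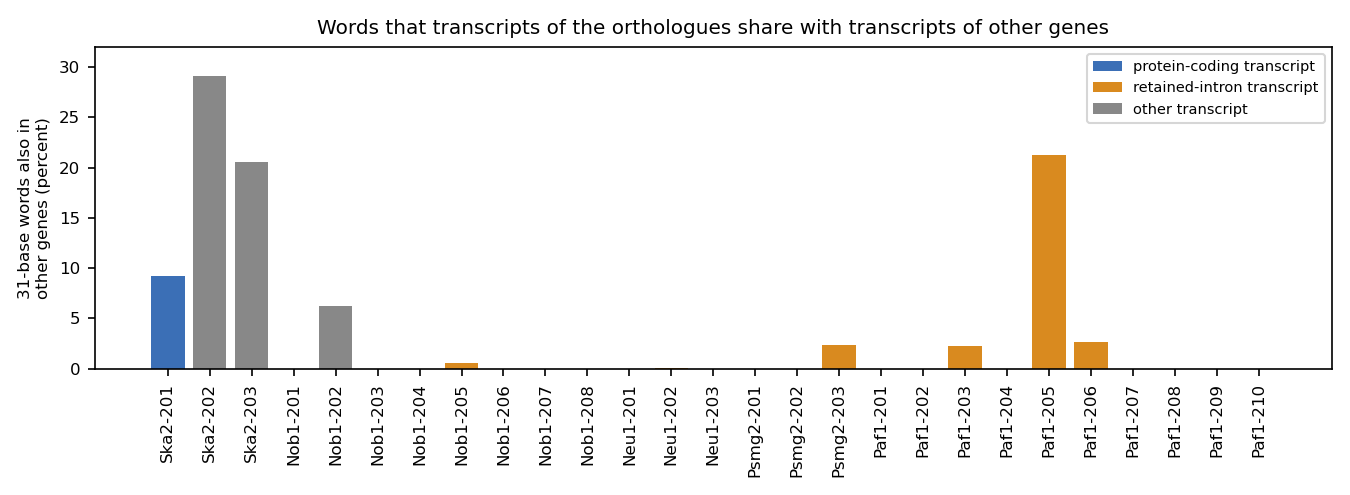
Bars give, for each annotated transcript of the 5 orthologues, the percentage of its 31-base words that also occur in transcripts of other genes on the same strand, coloured by transcript type. Paf1-201 has no bar while Paf1-205 reaches 21.3%, and all 3 Ska2 transcripts share words.

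The libraries differed in how much of their total was canine, and the mouse values have to be read beside that. Totals ran from 977106 to 989183 in all 8 libraries. Canine genes took 14.7% to 17.4% of the total in the tumour-free libraries, 43.3% to 44.7% after OSCA-32 and 68.4% to 70.7% after OSCA-40. The tumour-free share arose in mice that had received no canine cells, so canine rows can hold values without a graft. The search for shared words covered mouse transcripts alone. Whether reads of canine transcripts entered the mouse rows of tumour libraries was not tested. With a nearly fixed total, a larger canine share leaves less for the mouse genes as a whole, though not for each gene. The median protein-coding mouse gene was at 5 in each tumour-free library, 3 in both OSCA-32 libraries, and 2 and 1 after OSCA-40. The part of the canine share in these lower medians was not tested. The depth in reads is unknown, so no counting interval or detection limit is given, and a 0 means only that a gene is listed at 0. Differences were therefore tested on values scaled to the bulk of the genes, and values as deposited are given as a description. Fewer cells releasing a transcript and less of it per cell cannot be told apart in serum.

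Paf1 stood far above the other orthologues in each library. Its deposited value was 216 and 172 at week 0, 206 and 227 after PBS, 128 and 135 after OSCA-32, and 79 and 56 after OSCA-40. The tumour libraries were all below the tumour-free ones, and OSCA-40 was below OSCA-32. The mean was 205 ± 23.8 (SD, n = 4) in tumour-free and 99.5 ± 38.2 (SD, n = 4) in tumour libraries.

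Once each library was divided by its scaling factor, Paf1 no longer separated the groups. The scaled values were 216 and 169 at week 0, 198 and 215 after PBS, 186 and 190 after OSCA-32, and 232 and 171 after OSCA-40. The highest scaled value was an OSCA-40 library and the lowest a week 0 library. Of 3 genes within 1000 bases of Paf1, the antisense gene Gm44710 was not used here and the other two were low: Med29, a Mediator subunit, lay at 2 to 4 in the tumour-free libraries and 1 in each tumour library, and Samd4b, an RNA-binding repressor of translation, at 4 to 7 and 0 to 3.

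Ska2 was the next highest orthologue. It was listed at 8 in both week 0 libraries, 7 in both PBS libraries, 6 and 5 after OSCA-32, and 4 and 3 after OSCA-40. As for Paf1, every tumour library was below every tumour-free one, and the means were 7.5 ± 0.577 (SD, n = 4) and 4.5 ± 1.29 (SD, n = 4). Scaled, the order turned: the OSCA-40 libraries, at 11.7 and 9.19, lay above the 4 tumour-free libraries, at 6.64 to 8.0, while of the OSCA-32 libraries one, at 8.70, lay above that range and the other, at 7.05, inside it.

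Ska2 also had the largest share of words found in other genes, 8.43%. Ska2l-ps, which shares the printed stretch, was listed at 2 and 6 at week 0, 3 and 5 after PBS, 1 and 2 after OSCA-32, and 3 and 1 after OSCA-40. Prr11, a gene that starts within 1000 bases of Ska2 on the other strand without overlapping it, was at 8, 8, 7 and 7 in the tumour-free libraries. It was at 4, 4, 2 and 2 in the tumour libraries. The tumour-free values are the same whole numbers as those of Ska2, which 3.67% to 4.62% of protein-coding genes held in each of these libraries. An antisense gene, Gm11491, overlaps Ska2 and was not used here. How reads were assigned between these genes was not tested, and the values of Ska2 may be uncertain beyond the spread between libraries.

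Nob1 lies at chr8:107412486-107425051 on the minus strand. It was listed at 7 and 5 at week 0, 6 and 7 after PBS, 6 and 3 after OSCA-32, and 1 and 2 after OSCA-40. The OSCA-40 libraries were the lowest, while one OSCA-32 library lay among the tumour-free ones. Means were 6.25 ± 0.957 (SD, n = 4) in tumour-free and 3.0 ± 2.16 (SD, n = 4) in tumour libraries. Scaled, Nob1 ran from 4.92 to 7.0 in tumour-free and from 2.94 to 8.70 in tumour libraries, which enclosed the tumour-free range.

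Psmg2 lies at chr18:67641599-67654162 on the plus strand. It was listed at 4 and 3 at week 0, 3 and 4 after PBS, 3 and 2 after OSCA-32, and 2 and 1 after OSCA-40. Groups touched at 3, and the scaled values overlapped, at 2.88 to 4.0 in tumour-free and 2.82 to 5.87 in tumour libraries. Cep76, a centrosomal gene that starts within 1000 bases of Psmg2, was lower, at 2 to 3 and 0 to 2.

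Neu1, at chr17:34931253-34935953 on the plus strand, was the lowest orthologue. It was listed at 2 and 5 at week 0, 3 and 3 after PBS, 1 and 1 after OSCA-32, and 0 and 1 after OSCA-40. Deposited values did not overlap, with means of 3.25 ± 1.26 (SD, n = 4) and 0.75 ± 0.5 (SD, n = 4), but they rest on steps of a single unit. Scaled, the second OSCA-40 library moved to 3.06, inside the tumour-free range of 2.0 to 4.92. The other 3 tumour libraries stayed below that range, at 0, 1.41 and 1.45.

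**Figure D2:**
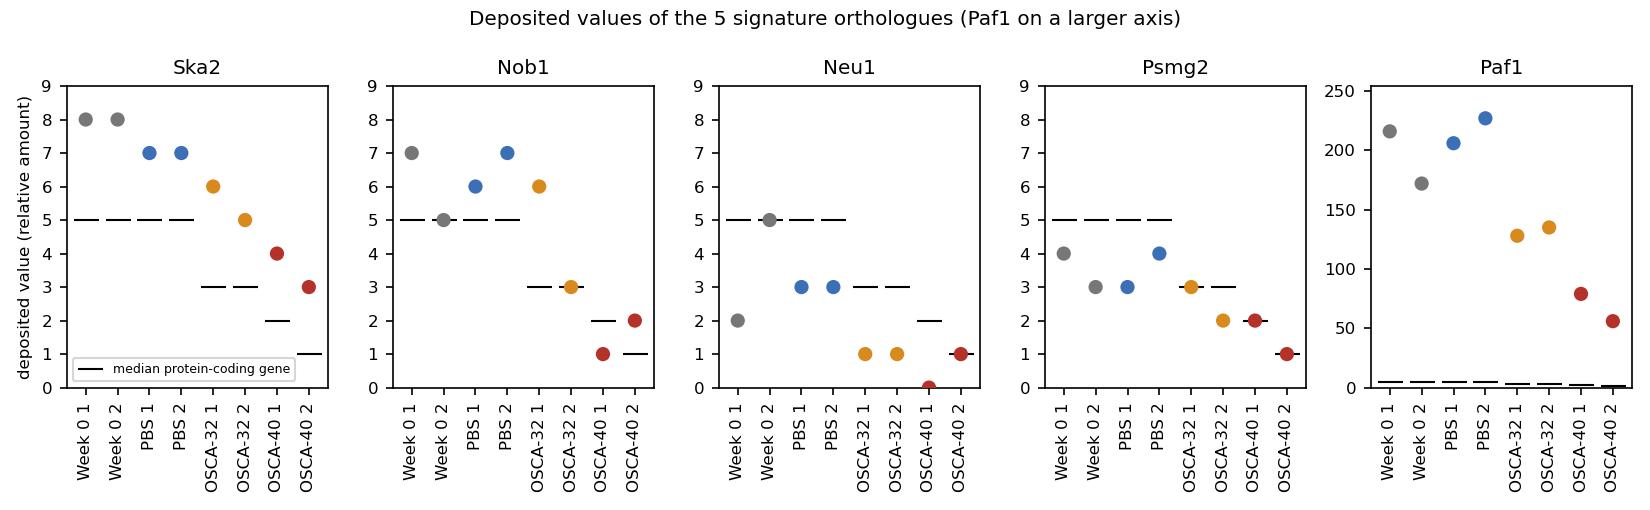
Points are the deposited values of each orthologue in the 8 libraries, and short black lines the median protein-coding mouse gene of the same library. Paf1 has its own axis, since it runs from 56 to 227 while the others stay at 8 or below, and both the points and the lines are lowest in the OSCA-40 libraries.

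By their means over the tumour-free libraries the order of the levels was Paf1, Ska2, Nob1, Psmg2 and Neu1. Paf1 exceeded Ska2, the next in each library, by 18.7-fold to 32.4-fold. Ska2 and Nob1 were within the spread of each other, with tumour-free values of 7 to 8 and 5 to 7, and so were Psmg2 and Neu1, with 3 to 4 and 2 to 5. Levels of different genes can be set side by side only per length. The deposited values rose less than length does: the median was 3 or 4 among the shortest protein-coding genes and 9 among the longest (lowest and highest 25% by length) in tumour-free libraries, and the slope of log2 value on log2 length was 0.27 to 0.40 over the 8 libraries, where reads not divided by length would give 1. The 5 genes had 1738 (Psmg2) to 3729 (Neu1) distinct words each, over all their annotated transcripts. Their coding transcripts ran from 1059 bases (Psmg2-201) to 3037 (Ska2-201). The order given above was not corrected for length.

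Against the typical protein-coding gene of the same library, the orthologues spanned nearly the whole range. Paf1 was at the 98.8th to 99.2th percentile of the 21474 protein-coding genes and 34.4 to 56.0 times their median. Ska2 was at the 62.0th to 78.0th percentile, above the median in all 8 libraries. Nob1 ranged from the 33.5th to the 70.9th percentile, Psmg2 from the 28.2th to the 57.9th and Neu1 from the 8.59th to the 52.6th, so each of these lay on both sides of the middle. Many genes share a whole number at these levels, and a step of 1 unit set the OSCA-32 libraries apart in Psmg2, one at the 29.7th and the other at the 47.8th percentile. The rank of Paf1, by contrast, stayed within the narrow range above while its deposited value ranged from 56 to 227.

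**Figure D3:**
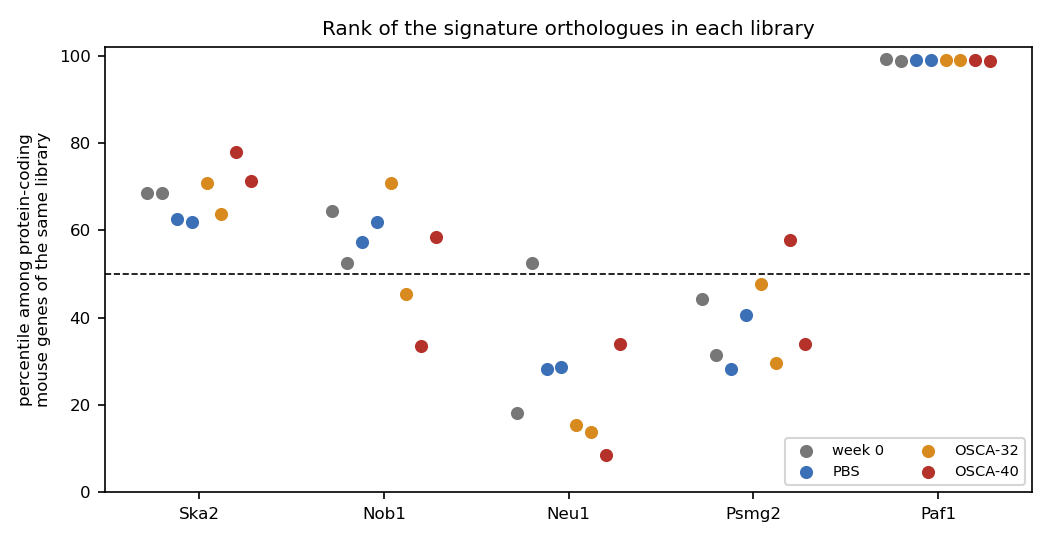
Points give the percentile of each orthologue among 21474 protein-coding mouse genes of the same library, coloured by group, with the middle dashed. Paf1 stays at 98.8 to 99.2 in all groups, while Nob1, Neu1 and Psmg2 each have libraries on both sides of the middle.

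A level like that of Paf1 was rare: 413 of the 21474 protein-coding genes (1.92%) had a tumour-free mean of at least 100. All 413 shared at least 1 word with another gene, against 65.9% of all protein-coding genes, and their median share was 3.90%, close to the 3.28% of Paf1. The part of these shared words in the level of Paf1 was not tested, because the table gives genes and not transcripts.

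The fall of the deposited values can be set beside that of other genes without scaling. Among 16418 protein-coding genes with a PBS mean of at least 3, the median gene kept 65.0% of its PBS mean after OSCA-32 and 30.0% after OSCA-40. Paf1 kept 60.7% and 31.2%, next to the median in both. Ska2 kept 78.6% and 50% and Psmg2 71.4% and 42.9%, both above the median, whereas Neu1 kept 33.3% and 16.7%, below it. Nob1 kept 69.2% after OSCA-32 and 23.1% after OSCA-40, above the median once and below it once. Both lines were set against the same PBS libraries, so the 2 percentages of a gene are not independent. The minimum of 3 was set on the PBS mean, which is also the divisor. Genes near it can therefore enter through high PBS values, which lowers their percentages. Neu1 (PBS mean 3.0) and Psmg2 (3.5) lay at or near that minimum, and the percentages of Neu1 rest on line means of 1.0 and 0.5.

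In 3 of the 5 orthologues, Ska2, Neu1 and Paf1, the 4 tumour libraries lay below the 4 tumour-free ones on deposited values. The same held for 29.6% of 21173 protein-coding genes. None had tumour libraries all above, as 0.0425% of protein-coding genes did. On scaled values none of the 5 had tumour libraries all below or all above, where 3.06% and 2.99% of protein-coding genes did. The count of 3 therefore belongs to the deposited scale, on which mouse genes as a whole were lower.

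Tests were made on log2 of the scaled value plus 1, with limma over all genes at once. Paf1 alone entered this fit, because a gene had to reach 10 in 2 or more libraries (7872 genes did). The other 4 orthologues were under 10 in all 8 libraries and take their values from a fit of all genes listed at 1 or more in any library (34607 genes), called the fit without the filter. At such low values the added 1 shrinks differences toward 0.

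OSCA-32 against PBS asks whether the values of mouse genes differ with a tumour of this line. Paf1 had a log2 difference of -0.14 ± 0.17 (SE; 95% interval -0.53 to 0.26; limma adjusted p = 0.860). Of the other members, Ska2 was at 0.22 ± 0.19 (SE; limma adjusted p = 0.840), Neu1 at -0.65 ± 0.65 (SE; limma adjusted p = 0.874), and Psmg2 and Nob1 at 0.09 and 0.01. None of the 5 was called, beside 1.08% of the genes in the filtered fit and 0.485% without the filter. The interval of Neu1, -2.30 to 1.00, was the widest, and differences inside it are not excluded.

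For OSCA-40 against PBS, the comparison with the most calls over all genes, Paf1 differed by -0.05 ± 0.17 (SE; 95% interval -0.44 to 0.34; limma adjusted p = 0.907). Ska2 was at 0.35 ± 0.19 (SE; limma adjusted p = 0.441), Neu1 at -1.03 ± 0.65 (SE; limma adjusted p = 0.455), Nob1 at -0.63 ± 0.42 (SE; limma adjusted p = 0.469) and Psmg2 at 0.10. With the factors behind the scaled values above, which come from the filtered genes, Ska2 was at 0.57 (limma adjusted p = 0.216). Again none was called, beside 6.83% of the filtered genes and 7.02% of the genes without the filter.

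OSCA-40 against OSCA-32 set the lines against each other. Paf1 differed by 0.09 ± 0.17 (SE; 95% interval -0.31 to 0.48; limma adjusted p = 0.845), and Nob1 had the largest estimate of the 5, -0.64 ± 0.42 (SE; limma adjusted p = 0.453). Neu1 was at -0.38, Ska2 at 0.12 and Psmg2 at 0.01. None was called, beside 2.54% and 5.23% of genes in the 2 fits.

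PBS at week 8 against week 0 asks whether time and the injection alone move the genes. Week 0 serum was pooled from all mice, which include those later given PBS or a line, so the groups are not separate animals. Estimates were 0.11 ± 0.17 (SE; 95% interval -0.28 to 0.50) for Paf1, -0.25 for Ska2, -0.15 for Neu1, -0.07 for Psmg2 and 0.03 for Nob1. None was called, beside 0.191% and 0.00578% of genes.

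Setting all 4 tumour against all 4 tumour-free libraries gave the narrowest intervals. Paf1 was at -0.04 ± 0.12 (SE; 95% interval -0.31 to 0.24; limma adjusted p = 0.898), and Neu1 had the largest estimate, -0.91 ± 0.46 (SE; 95% interval -2.08 to 0.25; limma adjusted p = 0.424). Nob1 was at -0.30, Ska2 at 0.16 and Psmg2 at 0.06. None was called, beside 6.05% and 5.32% of genes. Week 0 libraries enter here as tumour-free and differ from the tumour libraries in time as well. Their pool of all mice includes those later given a line.

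The outcome for Paf1 depended on the scale. With the libraries left at their deposited totals, limma called Paf1 lower in OSCA-32 against PBS by -0.71 (adjusted p = 0.0375), in OSCA-40 against PBS by -1.69 (adjusted p = 0.000196), in OSCA-40 against OSCA-32 by -0.97 (adjusted p = 0.00446) and in tumour against tumour-free libraries by -1.12 (adjusted p = 0.000295). On that scale 1294, 6695, 4617 and 6545 genes were called in the same comparisons, against 85, 538, 200 and 476 on the scaled values. The deposited totals include the canine share, which moves with the groups, and its part in these differences cannot be told apart from a loss of mouse transcripts common to most genes.

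**Figure D4:**
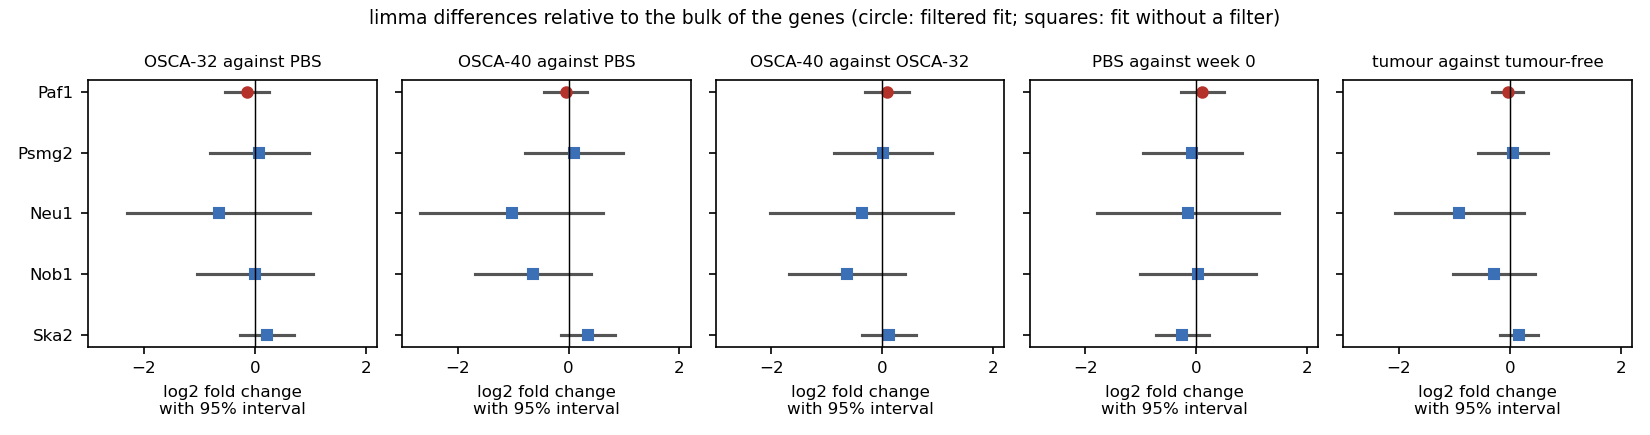
Points are limma log2 differences with 95% intervals for each orthologue in the 5 comparisons, circles from the filtered fit (Paf1) and squares from the fit without a filter. All intervals include 0, and those of Neu1 are the widest.

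Genes that work with each orthologue were examined as lists (Paf1 among 11 partners, Ska2 18, Psmg2 21, Nob1 13, since 1 of 14 chosen had no row, and Neu1 17). Over all genes tested, 0.191% to 6.83% were called in the 5 comparisons. A count of 0 or 1 among the 2 to 10 tested genes of a list therefore says little about them. The list medians given below have a further limit. Genes near the minimum of 10 can enter through high tumour-free values, which lowers their tumour differences. Paf1 was higher than all 11 genes of the PAF1 complex and of elongation, at 23.5 times their median of 8.75 in tumour-free libraries. The highest partner was Cdc73, another subunit of the complex, at 94 and 111 at week 0, 106 and 105 after PBS, 59 and 70 after OSCA-32, and 26 and 24 after OSCA-40. After Cdc73 came Supt5, a polymerase pausing and elongation factor, at 24 to 33 in tumour-free libraries. The remaining core subunits, named for their role after their values were known, were far lower in tumour-free libraries: Ctr9 at 16 in all 4, Rtf1 at 6 to 11, Wdr61 at 7 to 9 and Leo1 at 2 to 5. Of the 5 partners tested none was called in any comparison. Cdc73 came nearest, at -0.42 ± 0.12 (SE; limma adjusted p = 0.0876) in OSCA-40 against PBS, where the median was -0.21 over the 5 partners and -0.02 over all genes tested.

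For Nob1 the partners were genes of small-subunit maturation. Of 13 partners, 5 were higher and 8 lower than Nob1, with a median of 4.25. The highest was Nop14, a factor of the early pre-ribosome, at 23 and 12 at week 0, 7 and 19 after PBS, 14 and 5 after OSCA-32, and 7 and 4 after OSCA-40. Riok3, an atypical kinase, was steadier, at 12 to 14 in tumour-free, 9 and 11 in OSCA-32, and 4 and 3 in OSCA-40 libraries. Pno1, which binds NOB1 in the pre-ribosome and was named for that role after its values were known, was at 2 to 9 and 0 to 6. Only Nop14 and Riok3 were tested, and neither was called.

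Psmg2 was among the lower genes of its list. Of 21 genes of proteasome assembly and core, 15 were higher, 3 lower and 3 equal, with a median of 5.0. Psma7, a core subunit, was the highest at 45 to 65 in tumour-free, 26 to 27 in OSCA-32 and 13 to 17 in OSCA-40 libraries, and Psma3 ran at 20 to 25, 15 in both, and 8 to 9. The partner of PSMG2, Psmg1, was named for its role after its values were known, and was at 3 to 8 in tumour-free and 0 to 6 in tumour libraries, on both sides of Psmg2. Of the 7 tested genes none was called. Their median difference was -0.69 in OSCA-32 against PBS and 0.04 in OSCA-40 against PBS, against 0.00 and -0.02 over all genes tested. These medians have a limit, since high values in a group compared can bring a gene into the fit. Psmb4 entered through PBS values of 14 and 12 alone, and Psma6 through 11 at week 0 and 16 after PBS. Psmb3 entered through 11 at week 0 and 10 after OSCA-32.

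Neu1 was likewise low in its list of 17 lysosomal hydrolases and sialidases, with 13 higher, 3 lower, 1 equal and a median of 6.25. Manba, the lysosomal beta-mannosidase, was the highest, at 118 and 122 at week 0, 114 and 125 after PBS, 98 and 114 after OSCA-32, and 70 and 57 after OSCA-40. It was also the only partner of any orthologue that was called, 1 of 6 tested in its list. The 2 comparisons that called Manba called 6.83% and 6.05% of all genes tested. Manba rose on the scaled values by 0.73 ± 0.11 (SE; limma adjusted p = 0.00935) in OSCA-40 against PBS and by 0.53 ± 0.08 (SE; limma adjusted p = 0.00879) in tumour against tumour-free libraries, although its deposited values were lower there. Gaa, the lysosomal alpha-glucosidase, was at 28 to 51 in tumour-free, 16 and 22 in OSCA-32, and 9 and 3 in OSCA-40 libraries, and was not called. Ctsa, the cathepsin A that holds NEU1 in its complex, and the other sialidases were named for their role after their values were known. Ctsa was at 8 to 12 in tumour-free and 4 to 7 in tumour libraries, Neu3 at 25 to 28 and 7 to 17, Neu2 at 3 to 12 and 3 to 9, and Neu4 at 2 to 5 and 0 to 3. Neu3, a sialidase of the plasma membrane, thus had a higher value than Neu1 in each library.

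Ska2 stood near the middle of 18 kinetochore genes, with 11 higher and 7 lower and a median of 9.375. Dsn1, of the MIS12 complex, was the highest, at 34 and 46 at week 0, 66 and 70 after PBS, 22 and 10 after OSCA-32, and 8 and 14 after OSCA-40. Its estimate in OSCA-32 against PBS was -1.57 ± 0.41 (SE), which was not called (limma adjusted p = 0.185). Spc24, of the NDC80 complex, was at 42 to 53 in tumour-free, 34 and 48 in OSCA-32, and 16 and 10 in OSCA-40 libraries. The other SKA subunits, named for their role after their values were known, were lower than Ska2 in tumour-free libraries, with Ska1 at 0 to 4 and Ska3 at 4 to 6. Of the 10 tested genes none was called, and their median differences of 0.17 in OSCA-32 and -0.10 in OSCA-40 against PBS stood beside 0.00 and -0.02 over all genes tested.

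**Figure D5:**
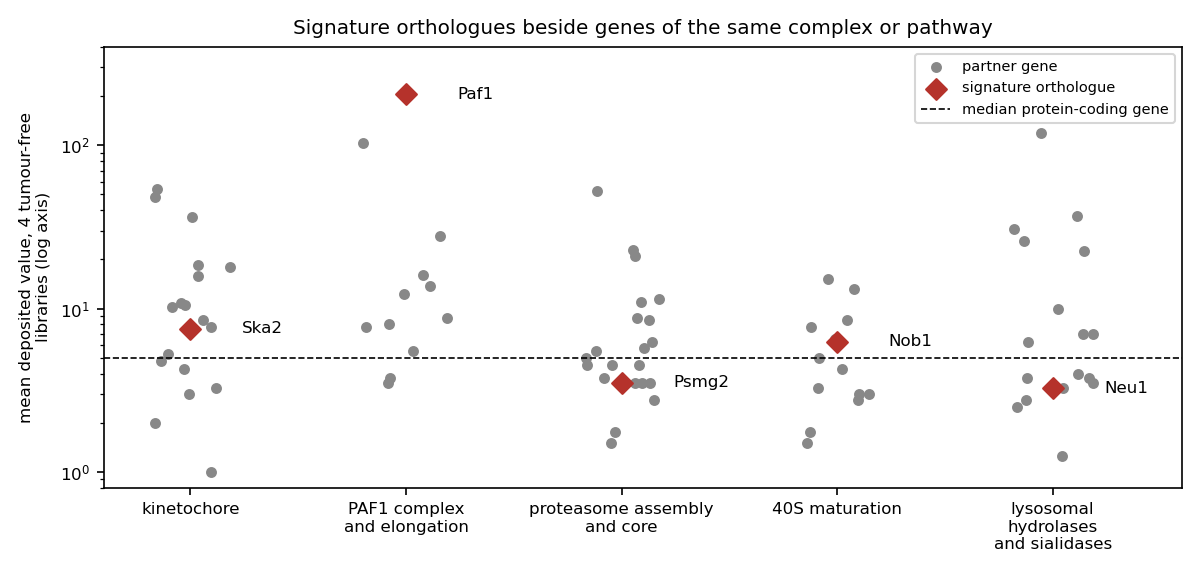
Points are mean deposited values over the 4 tumour-free libraries on a log axis, for partner genes (grey) and the orthologue of each list (red), with the median protein-coding gene dashed at 5. Paf1 is above all its 11 partners, and the other 4 lie within their lists.

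Over the 8 libraries the genes whose log2 scaled values were most like those of Paf1 were Gnb2, a G protein beta subunit, with Pearson's r = 0.948, Otud4, a deubiquitinase, with r = 0.934, and Sez6l2, a neuronal membrane protein, with r = 0.924. They were taken from 6129 named protein-coding genes, of which 12 reached 0.9, and the points share libraries and scaling factors. Gnb2 was at 10, 6, 9 and 10 in the tumour-free libraries, 6 and 5 after OSCA-32, and 4 and 2 after OSCA-40. Like Paf1 it was lower in the second than in the first library of week 0 and of OSCA-40, so the likeness includes differences within groups.

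The levels of markers of blood and liver cells stood beside these values as follows. The summed deposited values of the 7 genes of the platelet list were 97 to 138 in tumour-free and 144 to 207 in tumour libraries. Those of 7 erythroid markers were 300 to 472 and 250 to 273, and those of 7 hepatocyte markers 52 to 70 and 46 to 69. Vesicle components, 10 genes, summed to 266 to 319 and 46 to 168, B and plasma cell markers, 5 genes, to 35 to 48 and 12 to 24, and markers of neutrophils and monocytes, 6 genes, to 31 to 37 and 11 to 19. These sums are on the deposited scale, on which mouse genes as a whole were lower in tumour libraries. Single genes carried much of some sums, with tumour-free means of 208 for Cd9 and 246 for Hba-a2. In the platelet list Pf4 (means 28.75 and 61.5) and Tmsb4x (39.25 and 83.25) rose most. Ppbp (7.25 and 10.25) rose less, and Itga2b, Gp9, Gp1bb and Gp6 did not rise. No gene of these lists was at 0 in all libraries. In OSCA-40 against PBS 6.83% of all genes tested were called. On scaled values limma called 3 of 4 tested genes of the platelet list higher (Ppbp, Pf4 and Tmsb4x). It also called 1 of 5 of the erythroid list (Hba-a2) and 2 of 3 of the hepatocyte list (Alb and Trf) higher. Of 5 tested vesicle components 1, the tetraspanin Cd9, was called lower. Other tetraspanins fell less on deposited values: Cd63 was at 6 and 7 after PBS and 3 in both OSCA-40 libraries, and Cd81 at 10 and 11 and at 5 and 3. The part of these cell sources in the values of the 5 orthologues was not tested.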

How the data were processed

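The deposited table gives a whole number for each gene in each library, with both species in 1 table. Tools and builds listed in the submitters' processing notes, with no role given, were kallisto 0.43.0, Trimmomatic 0.33.0, FastQC 0.11.5, CanFam3.1 and GRCm38.p5. The sources used here give no index, annotation release or filter. Per the labels' protocols, ExoQuick served to enrich exosomes, a SeraMir kit to extract RNA and a stranded SMARTer pico-input kit to make libraries. The deposited values are treated as a score: their totals are nearly fixed, as TPM would be, and keep no depth. Symbols, positions and transcripts came from GENCODE M21, in which 31171 of 31300 mouse identifiers had a symbol.

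Libraries were scaled to the first week 0 library by an unweighted trimmed mean of log ratios (30% of ratios and 5% of levels trimmed at each end). limma 3.58.1 in R 4.3.3 was fitted to log2(scaled value + 1) over 8 libraries with a mean per group (4 residual degrees of freedom) and a variance trend, for genes at 10 or more in at least 2 libraries. Adjusted p-values are Benjamini-Hochberg values over all genes of a comparison, called under 0.05. The 4 orthologues under this filter take theirs from the fit without it, with scaling factors from all of its genes. The filtered fit was tested on simulated data. Changes were placed only in genes well above the levels of the 4 low orthologues. The fit without the filter was not tested in this way.

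Alternatives were other scalings, filters, pseudocounts and models, and leaving out each library. The members and lists were chosen with earlier results of these data known. Named genes are the 5 orthologues, the 3 genes most correlated with each that was tested, and per partner list those called or otherwise the highest by mean.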

Additional observations from a re-analysis of the deposited data

How the results depend on the processing

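The number of orthologues called was 0 in all 5 comparisons as reported and 1 (Paf1) with library totals alone in all but PBS against week 0. For the filtered fit, which tests Paf1, it was 0 under the other alternatives run, from 0 to 0 with 1 library left out. Of the 4 orthologues under the filter, Ska2, Neu1 and Nob1 were called only with library totals alone in the fit without a filter, as given below. Psmg2 was not called there (lowest limma adjusted p = 0.0602, in OSCA-40 against PBS). Numbers did not pair the libraries: replicate differences correlated between groups at -0.0574 to 0.00593, and with the replicate block the number called was 0 and Paf1 was at -0.14 (limma adjusted p = 0.850) in OSCA-32 against PBS.

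Some signs turned. Paf1 in OSCA-40 against OSCA-32 was -0.97 with library totals alone and -0.18 without the filter. The 4 low orthologues changed under settings added after seeing the data. With library totals alone Ska2 was at -0.30 for OSCA-32 and -0.84 for OSCA-40 against PBS (adjusted p = 0.335 and 0.0128), -0.54 (between lines) and -0.66 (tumour against tumour-free; adjusted p = 0.0106), and Psmg2 at -0.37, -0.87, -0.50 and -0.62. Neu1 then passed the threshold in OSCA-40 against PBS at -1.50 (adjusted p = 0.0489) and in tumour against tumour-free at -1.29 (adjusted p = 0.0302), as did Nob1 at -1.61 (adjusted p = 0.0207) and -1.0 (adjusted p = 0.0316). Nob1 in OSCA-32 against PBS was -0.50 with library totals, -0.015 with factors of the filtered genes, -0.00045 with a pseudocount of 0.25 and -0.0012 with a minimum of 5. The cause was not tested.

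With 1 library left out, Paf1 ranged from -0.13 to 0.30 between lines, -0.27 to 0.17 in OSCA-40 against PBS, -0.060 to 0.29 in PBS against week 0 and -0.14 to 0.072 in tumour against tumour-free. Psmg2 ranged from -0.15 to 0.32, -0.28 to 0.48, -0.24 to 0.097, -0.37 to 0.39 and -0.13 to 0.25 in turn over OSCA-32 and then OSCA-40 against PBS, PBS against week 0, between lines and tumour against tumour-free. Neu1 ranged from -1.28 to 0.53 between lines, -0.65 to 0.34 in PBS against week 0, -1.93 to -0.12 in OSCA-40 against PBS and -1.36 to -0.46 in tumour against tumour-free, with both ends of the OSCA-40 range set by leaving out one or the other OSCA-40 library. Nob1 ranged from -0.43 to 0.45 in OSCA-32 against PBS, -0.18 to 0.25 in PBS against week 0 and -1.03 to -0.24 in OSCA-40 against PBS, and Ska2 from -0.055 to 0.30 between lines.

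Genes called overall ranged from 28 to 1294, 268 to 6695, 2 to 15, 63 to 4617 and 257 to 6545 over the alternatives for the same comparisons in that order: OSCA-32 and then OSCA-40 against PBS, PBS against week 0, between lines and tumour against tumour-free. With 1 library left out alone, they ranged from 38 to 84, 268 to 524, 2 to 10, 63 to 182 and 265 to 472; the fewest came without the second PBS, the first PBS, several libraries equally, the second OSCA-32 and the first week 0 library. Depth is unknown, and at whole-number values under 10 a step of 1 unit limits what could be seen in Ska2, Neu1, Psmg2 and Nob1.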
